A study of Drosophila melanogaster with 9 samples.

Results

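Heads of adult Drosophila melanogaster that carry the kdm5[A512P] allele were set directly against heads that carry the kdm5[JmjC*] allele, gene by gene. A gene was taken when its mean normalized count over all libraries reached 50, which held for 9300 of 17478 genes; 9292 of these had an adjusted p-value for both alleles and were tested. The choice used the expression level over all 9 libraries, mutants included. A gene that is low in WT can therefore have passed through a high level with a single allele. Messenger RNA of whole heads, from flies aged 3 to 5 days on standard food and without treatment, had been sequenced in 9 stranded libraries: 3 of wild type (WT), 3 of kdm5[A512P] and 3 of kdm5[JmjC*]. In kdm5[A512P] (A512P below) an alanine of KDM5 is exchanged for a proline, after a missense change of human KDM5C in families with intellectual disability. In kdm5[JmjC*] (JmjC* below) the protein lacks demethylase activity. The sources used here do not give sex, genetic background or the way in which the alleles were introduced.

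KDM5, in flies also called Little imaginal discs (lid), is a large chromatin protein. Its Jumonji C domain takes methyl groups off a histone that marks active promoters, and other domains of the same protein bind histone tails and partner proteins, so that it also acts on transcription without its enzyme. Loss of KDM5 function in flies is known to touch learning, growth, metabolism and immunity, and inherited changes of the human relatives KDM5A, KDM5B and KDM5C occur in intellectual disability. The question of the direct comparison is where an allele modelled on patients parts from an allele that lacks only the enzyme.

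The quantity reported is a difference of log2 fold changes: A512P against WT minus JmjC* against WT. A value above 0 means more transcript in A512P heads, a value below 0 more in JmjC* heads. The WT libraries enter both fold changes, and their level drops out of the difference, except that shrinkage of the deposited fold changes towards 0 need not be equal for both alleles. Its standard error (SE) was taken as the root of the summed squared SEs, which is an upper bound because WT error is counted in both; a gene was called at a Benjamini-Hochberg adjusted p under 0.05 in a two-sided normal test over all 11608 genes tested for both alleles. Values per library were not used here, so the spread between libraries enters only through the SE, and the depth of single libraries is unknown. The mean normalized count, identical for both alleles at all 17478 genes, had a median of 1076 over the 9300 genes.

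The alleles were called different at few genes under this upper bound of the SE. In the direct test 82 of 9292 genes were called (0.882%): 51 were higher in A512P heads (0.549%) and 31 higher in JmjC* heads (0.334%). Against WT, the authors' deposited tables called 2151 of the same genes in A512P (23.1%; 958 above WT, 10.3%, and 1193 below, 12.8%) and 3026 in JmjC* (32.6%; 1375 above, 14.8%, and 1651 below, 17.8%). Over all genes tested the median difference was -0.0019, and 5% of genes lay below -0.27 and 5% above 0.29, as percentiles of the differences. The 95% confidence interval of the difference stayed within 1.5-fold either way for 7310 genes (78.7%) and within 2-fold for 9082 (97.7%). A shared WT gives a correlation of 0.5 between both fold changes when all groups have equal size and equal spread. With that correlation 360 genes were called (3.87%), 209 higher in A512P (2.25%) and 151 higher in JmjC* (1.63%). The 82 genes were all among them, because every SE becomes smaller.

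Called genes differed by a median of 1.75-fold, 31 of them by at least 2-fold (20 higher in A512P and 11 higher in JmjC*). The smallest called difference was that of Ipp, an inositol polyphosphate phosphatase gene, at 0.31 ± 0.080 (SE) on the log2 scale. Against WT, 51 of the 82 genes were called for 1 allele alone, 25 in A512P and 26 in JmjC*; 20 were called for both in the same direction and 11 for both in opposite directions, all in the authors' deposited tables. Of the 51 genes higher in A512P, the authors' deposited table for A512P called 29 above WT and 9 below, and that for JmjC* called 4 above and 29 below. Of the 31 genes higher in JmjC*, the authors' deposited table for JmjC* called 22 above WT and 2 below, and that for A512P called 5 above and 13 below.

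**Figure D1:**
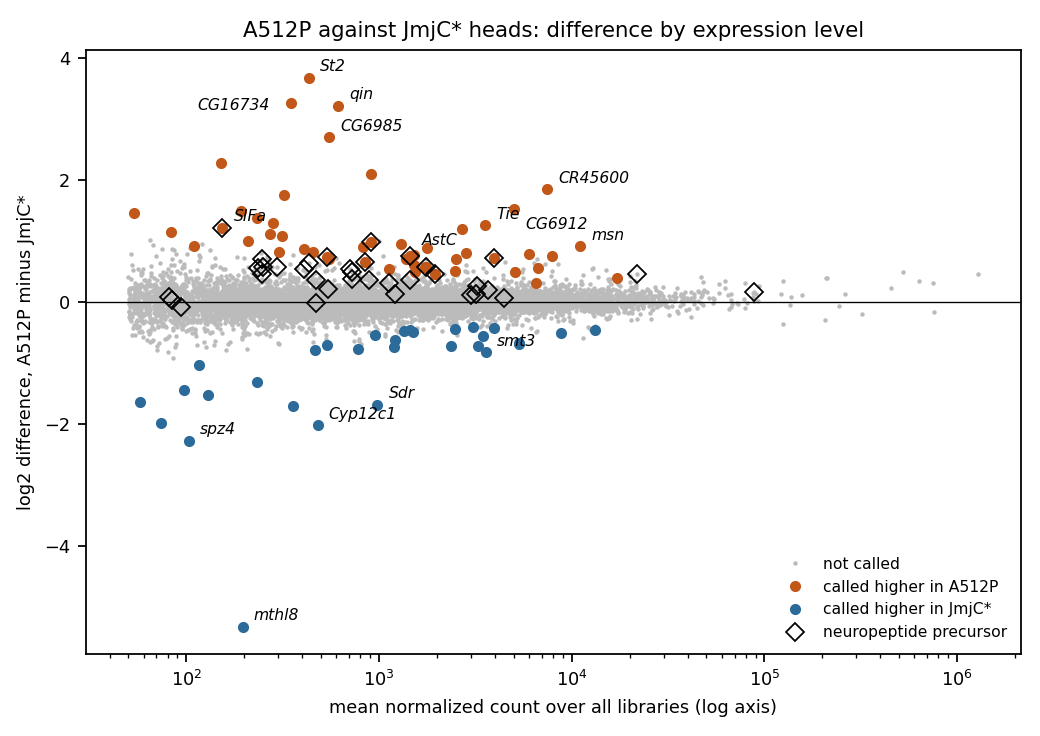
Difference between the alleles (log2, A512P minus JmjC*) for each tested gene against its mean normalized count (log axis); orange points were called higher in A512P, blue points higher in JmjC*, and open diamonds mark neuropeptide precursor genes. The 82 called genes run from -5.32 (mthl8) to 3.68 (St2), while most grey points lie close to 0; 33 of 35 diamonds lie above 0.

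The largest difference of all belonged to mthl8, a gene of the methuselah-like family of G protein-coupled receptors, which was 40.03-fold higher in JmjC* heads. The authors' deposited tables give its log2 fold change as -0.09 ± 0.23 (SE) in A512P (adjusted p = 0.846) and as 5.24 ± 0.21 in JmjC* (adjusted p = 3.91e-130). Only JmjC* stood apart from WT, and the difference was -5.32 ± 0.31 (adjusted p = 3.79e-61, direct test). The mean normalized count of mthl8, 196, is over all libraries, JmjC* included. By these fold changes its level in WT and A512P was far lower than in JmjC*. It may therefore have passed the minimum count through JmjC* alone, and its fold is taken against a low level. None of the other 9 methuselah-like genes tested was called; their differences ran from -0.17 (mthl5) to 0.18 (mthl9). The gene mthl8 (FBgn0052475, protein coding) lies near the end of chromosome arm 3L, at 22428 to 26308 of BDGP6.54 on the plus strand.

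Other genes that set JmjC* apart by a rise were spz4, Cyp12c1, tgy and CG10663. For spz4, a ligand gene of the Spätzle family, which is related to the activator of the Toll receptor, the authors' deposited tables give 0.51 ± 0.22 in A512P and 2.78 ± 0.21 in JmjC*, a difference of -2.27 ± 0.31 (adjusted p = 7.78e-11). Cyp12c1, a cytochrome P450 gene, stood at -0.19 ± 0.17 in A512P and 1.83 ± 0.16 in JmjC* in the authors' deposited tables, with a difference of -2.02 ± 0.23. It was the only one of 72 cytochrome P450 genes called. For tgy the difference was -1.63 ± 0.33 and for CG10663 it was -1.31 ± 0.30; neither was called against WT in A512P in the authors' deposited table.

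A second set, higher in JmjC*, fell in A512P. Sdr, a secreted protein that binds insulin-like peptides away from their receptor, stood at -1.76 ± 0.092 in A512P and -0.07 ± 0.086 in JmjC* in the authors' deposited tables; the latter was not called against WT (adjusted p = 0.571). Its difference of -1.69 ± 0.13 (adjusted p = 1.38e-37) had the smallest p of the genes higher in JmjC* after mthl8. GILT3, of a family of thiol reductases, and CG9589 fell with both alleles and further with A512P: the authors' deposited tables give CG9589 as -2.62 ± 0.22 in A512P and -0.64 ± 0.21 in JmjC*. For GILT3 the authors' deposited tables give -2.42 ± 0.20 and -0.90 ± 0.19. The differences were -1.98 ± 0.31 for CG9589 and -1.52 ± 0.27 for GILT3. CG5399, at -1.45 ± 0.30, was below WT in A512P alone in the authors' deposited tables. SPE, the protease that processes Spätzle, differed by -0.68 ± 0.18 and laza, a lipid phosphatase of the photoreceptor cascade, by -0.41 ± 0.11.

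A further set rose with both alleles and further with JmjC*. The cuticle protein gene Cpr66D stood at 1.20 ± 0.19 in A512P and 2.22 ± 0.19 in JmjC* in the authors' deposited tables, a difference of -1.02 ± 0.27 (adjusted p = 0.0212). The gene of the small ubiquitin-like modifier SUMO, smt3, stood at 0.47 ± 0.11 and 1.30 ± 0.10 in the authors' deposited tables and differed by -0.83 ± 0.15 (adjusted p = 1.16e-05). The others called above WT with both alleles were tyn, Lgr1 and CG4096, whose differences were -0.73, -0.48 and -0.45. Smaller differences towards JmjC* were called for cib, an actin-binding thymosin-beta protein (-0.72 ± 0.15), Coprox, a step of haem synthesis (-0.71 ± 0.20), aop, an ETS-type repressor (-0.56 ± 0.15), sws, the fly neuropathy target esterase (-0.50 ± 0.12), and bw, an eye pigment transporter (-0.50 ± 0.13). None of these 5 was called against WT in A512P in the authors' deposited table.

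In the other direction, St2, a sulfotransferase gene, was 12.8-fold higher in A512P heads than in JmjC* heads. The authors' deposited tables give it as 4.45 ± 0.21 in A512P (adjusted p = 2.92e-96) and 0.78 ± 0.21 in JmjC* (adjusted p = 0.00198). It rose with both alleles, and the difference was 3.68 ± 0.30 (adjusted p = 2.52e-31). The other sulfotransferase genes tested were not called: St1 differed by 0.0020 ± 0.15 and St3 by 0.091 ± 0.12. St2 (FBgn0037665, protein coding) lies on 3R at 9251843 to 9253514, and the next 2 genes along the chromosome were called in the same direction. The pseudogene CR16735 differed by 2.27 ± 0.31 and CG16734 by 3.26 ± 0.25; their positions are taken up further on.

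Several genes rose in A512P and were not called against WT in JmjC*. CG6985 stood at 2.97 ± 0.17 in A512P and 0.28 ± 0.18 in JmjC* in the authors' deposited tables, a difference of 2.70 ± 0.25. Smu1, a splicing factor gene, stood at 1.95 ± 0.10 and -0.16 ± 0.11 in the authors' deposited tables, a difference of 2.10 ± 0.15 (adjusted p = 4.65e-41). The kinase gene msn (misshapen, of the Ste20 family) stood at 0.92 ± 0.063 in A512P and 0.0057 ± 0.063 in JmjC* in the authors' deposited tables, and only A512P was called (difference 0.91 ± 0.089, adjusted p = 1.92e-21). Edg91, a cuticle protein gene, differed by 1.49 ± 0.26, the antisense gene CR45600 by 1.85 ± 0.13, the non-coding gene CR45531 by 1.45 ± 0.31 and CG7214 by 1.38 ± 0.28. CG11897 differed by 1.20 ± 0.14 and glob1, a haemoglobin gene, by 0.76 ± 0.15. None of these 9 genes was called against WT in JmjC* in the authors' deposited table.

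Tie, a receptor tyrosine kinase gene, was called above WT with both alleles and differed in size. The authors' deposited tables give it as 1.51 ± 0.085 in A512P and 0.25 ± 0.086 in JmjC*, and the difference was 1.25 ± 0.12 (adjusted p = 4.52e-22). Nmdmc, a mitochondrial enzyme of folate metabolism, stood at 1.05 ± 0.13 and 0.35 ± 0.13 in the authors' deposited tables, a difference of 0.70 ± 0.18. Of the 51 genes higher in A512P, 22 were called above WT in A512P and not below it in JmjC*, and another 22 were called below WT in JmjC* and not above it in A512P, in the authors' deposited tables. The genes that follow belong to the latter. CR44030, an antisense transcript on chromosome 4, stood at -0.29 ± 0.18 in A512P and -2.03 ± 0.19 in JmjC* in the authors' deposited tables. Its difference was 1.75 ± 0.26. CG7906 stood at -1.07 ± 0.14 and -2.36 ± 0.15 in the authors' deposited tables and differed by 1.29 ± 0.21, and path, an amino acid transporter gene, differed by 0.39 ± 0.094.

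**Figure D2:**
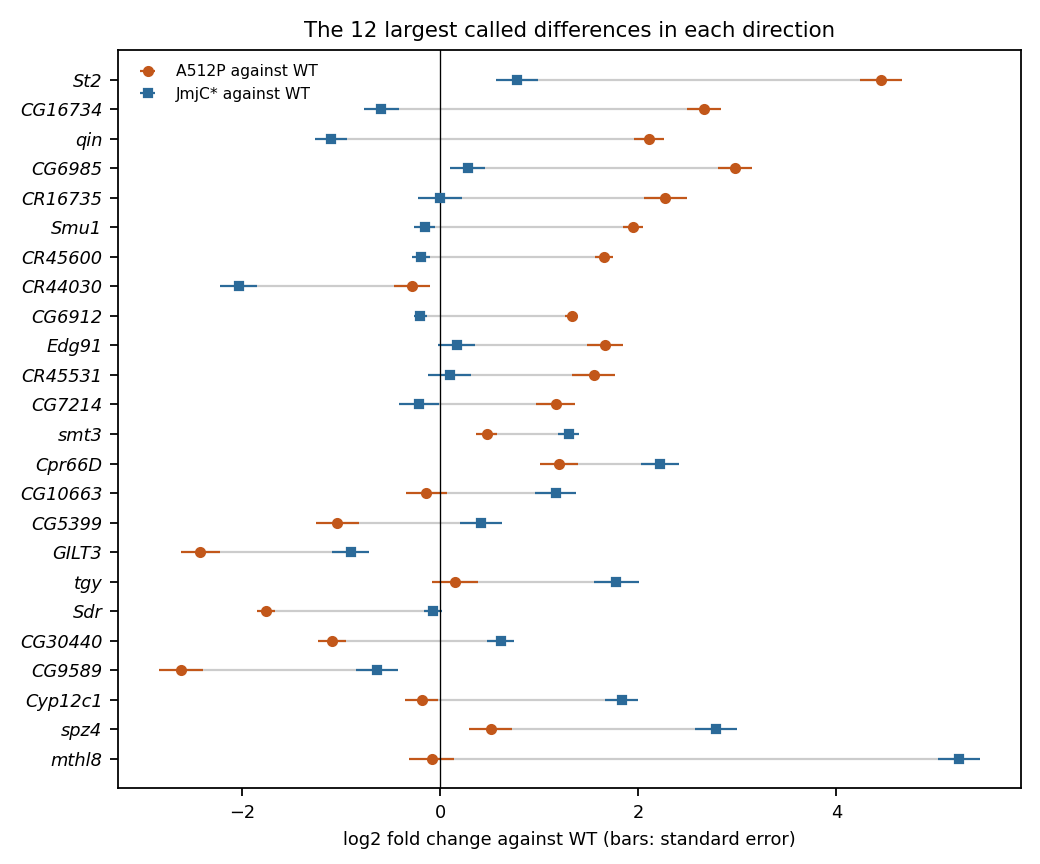
Log2 fold change against WT in A512P (orange circles) and JmjC* (blue squares), with the authors' SE as bars, for the 12 called genes with the largest difference in each direction. For mthl8 the A512P point is at -0.09 and the JmjC* point at 5.24, whereas St2 is at 4.45 and 0.78 and qin lies on opposite sides of WT at 2.11 and -1.10.

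In all, 11 of the 82 genes were called on opposite sides of WT, 7 with the higher level in A512P and 4 with the higher level in JmjC*. qin, a Tudor domain factor of the piRNA pathway, which silences transposons chiefly in the germline, stood at 2.11 ± 0.15 in A512P and -1.10 ± 0.16 in JmjC* in the authors' deposited tables. The alleles thus lay 9.25-fold apart, at a difference of 3.21 ± 0.22 (adjusted p = 1.52e-43). CG16734 stood at 2.66 ± 0.17 in A512P and -0.60 ± 0.18 in JmjC* in the authors' deposited tables, a 9.57-fold gap. CG6912 stood at 1.33 ± 0.063 and -0.20 ± 0.064 in the authors' deposited tables; its difference of 1.53 ± 0.090 had the smallest adjusted p of all genes higher in A512P (3.79e-61). CG30440 had the reverse pattern, at -1.10 ± 0.14 in A512P and 0.61 ± 0.13 in JmjC* in the authors' deposited tables. The remaining 7 genes moved by less. CG15353, CG30033, CG7203 and CG6908 were higher in A512P, by 1.12, 0.95, 0.80 and 0.49. The TBC domain gene plx and the adhesion genes kirre and bdl, both of the immunoglobulin superfamily, were higher in JmjC*, with differences of -0.72, -0.63 and -0.46. CG15353 and CG6908 passed only narrowly in A512P, at adjusted p = 0.0495 and 0.0459 in the authors' deposited table.

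In the list of 27 piRNA, small RNA and heterochromatin genes qin was the only gene called, and the list's median difference was 0.0095, beside -0.0019 over all genes. At an unadjusted p under 0.05 the list had 6 genes, 5 of them higher in JmjC*, and with a correlation of 0.5 between both fold changes vret, spn-E, Dcr-1 and AGO2 were called higher in JmjC*. AGO3, a nuclease of the same pathway, differed by 0.44 ± 0.28 and vret by -0.79 ± 0.29 (adjusted p = 0.331), while piwi differed by -0.62 ± 0.30 (adjusted p = 0.897).

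Neuropeptide precursor genes had a higher level in A512P heads than in JmjC* heads, with the largest median difference among the 41 gene lists of 5 or more tested genes. Neuropeptides are short signals cut from larger precursors in small sets of neurons and endocrine cells of the head, where they set feeding, sleep, mating and metabolism. Of 35 precursor genes tested, 8 were called higher in A512P and 0 higher in JmjC* in the normal test, against 0.549% and 0.334% of all genes; at an unadjusted p under 0.05 the counts were 22 and 0, beside 280 and 213 of all 9292 genes (493 in all, 5.31%). Against WT, the authors' deposited tables called 14 below and 3 above in A512P, and 23 below and 0 above in JmjC*. The median difference was 0.45, beside -0.0019 over all genes. Of the 35 differences 33 were above 0, beside 4594 of all 9292 genes. Such a lean was not particular to this list. Translation factors had 29 of 32 above 0 and cytosolic ribosomal protein genes 68 of 82, with medians of 0.084 and 0.055. Proteasome subunits leaned the other way, with 28 of 33 below 0. In the authors' deposited tables the median of the 35 log2 fold changes was -0.22 in A512P and -0.67 in JmjC*. Whole heads were sequenced, so fewer cells that make a peptide and less RNA per cell cannot be told apart.

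The widest gap was that of SIFa, a peptide of a few brain neurons with a role in courtship and feeding. The authors' deposited tables give it as -0.0035 ± 0.19 in A512P and -1.22 ± 0.19 in JmjC*, a difference of 1.21 ± 0.27 (adjusted p = 0.0020). Dsk, the cholecystokinin-like satiety peptide, stood at -0.32 ± 0.17 and -1.31 ± 0.17 in the authors' deposited tables and differed by 0.99 ± 0.24 (adjusted p = 0.00958). Mip, the myoinhibitory peptide precursor, stood at -0.17 ± 0.12 and -0.83 ± 0.12 in the authors' deposited tables and differed by 0.66 ± 0.17 (adjusted p = 0.0151). For these 3 genes A512P was not called against WT, and JmjC* was called below it.

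A further 4 called precursors fell with both alleles, and further with JmjC*. AstC, which encodes allatostatin C, stood at -0.66 ± 0.072 in A512P and -1.41 ± 0.074 in JmjC* in the authors' deposited tables; its difference of 0.75 ± 0.10 had the smallest adjusted p of the list (3.93e-10). Ms, the myosuppressin gene, stood at -0.28 ± 0.094 and -0.996 ± 0.094 in the authors' deposited tables and differed by 0.72 ± 0.13 (adjusted p = 2.9e-05). Proc, which encodes proctolin, differed by 0.58 ± 0.12 and Dh44, a hormone related to corticotropin-releasing factor, by 0.46 ± 0.11. The eighth gene, Ilp3, an insulin-like peptide of the brain's insulin-producing cells, was called above WT in A512P and not called in JmjC*. The authors' deposited tables give it as 0.53 ± 0.14 and -0.20 ± 0.14, and its difference was 0.73 ± 0.19 (adjusted p = 0.0206).

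The other 27 precursors were not called, and several had differences as large as those of called genes with wider errors. Nplp4 differed by 0.71 ± 0.33, NPF by 0.64 ± 0.21 (adjusted p = 0.166), Eh by 0.57 ± 0.24, Ilp5 by 0.57 ± 0.33, FMRFa by 0.56 ± 0.20, Pdf, the clock neuron peptide, by 0.54 ± 0.19 (adjusted p = 0.281), Trissin by 0.54 ± 0.17 and Orcokinin by 0.50 ± 0.19. At the low end lay Crz at -0.02 ± 0.15 and Ptth at -0.09 ± 0.26. Tk, the tachykinin gene, fell with both alleles, to -0.98 in A512P and -1.11 in JmjC* in the authors' deposited tables, and its difference was 0.13 ± 0.18. CNMa had a difference of 0.37 ± 0.29, from -1.33 in A512P and -1.70 in JmjC* in the authors' deposited tables. With a correlation of 0.5 between both fold changes, 19 of the 35 were called higher in A512P.

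**Figure D3:**
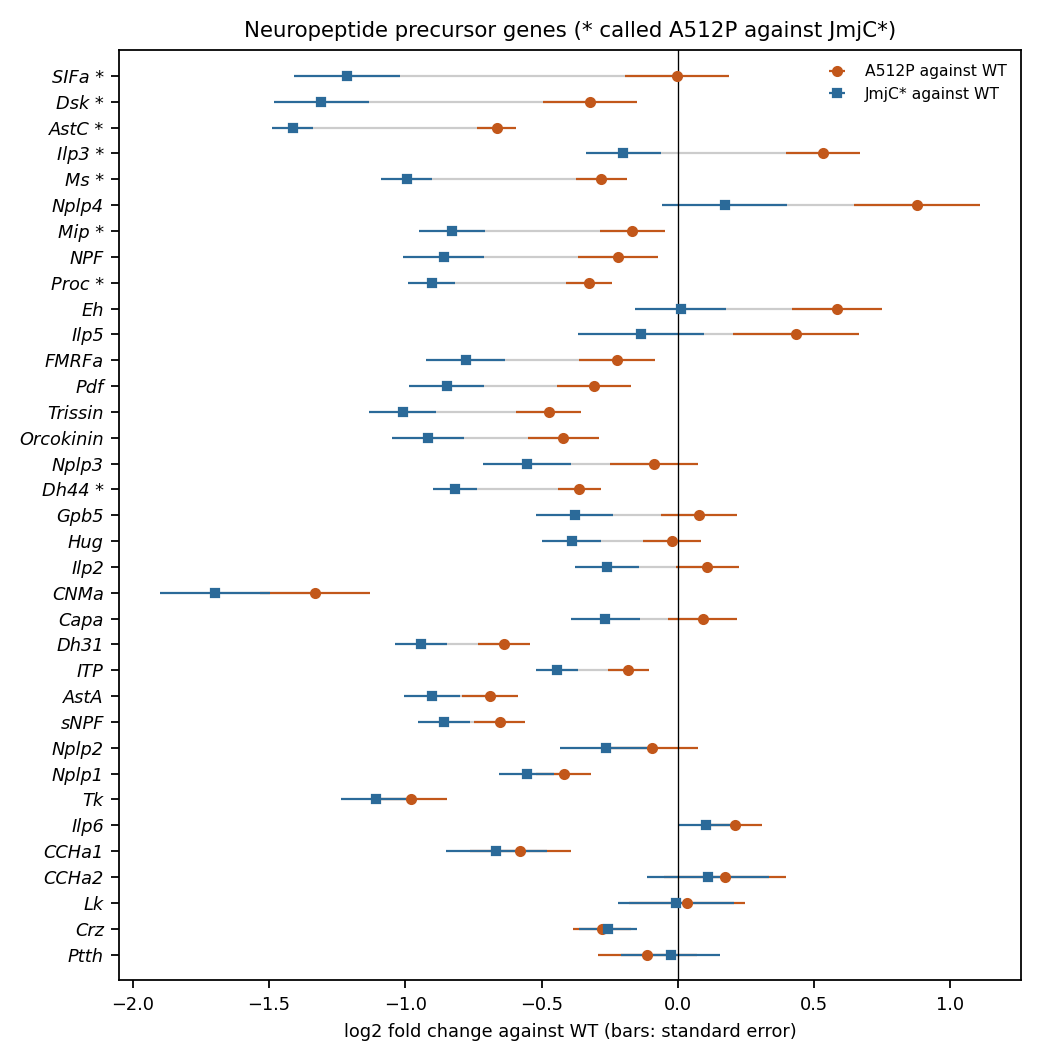
Log2 fold change against WT of 35 neuropeptide precursor genes in A512P (orange circles) and JmjC* (blue squares), with the authors' SE as bars, ordered by the difference; an asterisk after a name marks a gene called in the direct test. In 33 of 35 the A512P point lies to the right, from a gap of 1.21 for SIFa at the top to -0.09 for Ptth at the bottom.

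Receptors and processing enzymes of these peptides had median differences close to that of all genes. Among 37 peptide receptor genes 0 were called higher in A512P and 1 higher in JmjC*, Lgr1, the receptor of a glycoprotein hormone, at -0.48 ± 0.13 (adjusted p = 0.026). The median difference of the receptors was 0.048, and 2 were higher in A512P at an unadjusted p under 0.05. SIFaR, the receptor of SIFa, differed by -0.28 ± 0.15, MsR1, a myosuppressin receptor, by -0.22 ± 0.16 and Proc-R, the proctolin receptor, by 0.16 ± 0.12; none of these was called. Among 14 genes of peptide processing and release 0 were called in the normal test and 0 had an unadjusted p under 0.05. Their differences ran from -0.39 (Nep5, a neprilysin) to 0.21 (dimm, a transcription factor of peptidergic cells, 0.21 ± 0.30), with a median of 0.034. The proprotein convertase amon differed by 0.15 ± 0.13, and the amidation enzymes Phm and Pal2 by -0.11 ± 0.10 and 0.037 ± 0.072.

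Markers of the cell types of a head were measured beside these results. None of 27 markers tested was called between the alleles. The 5 markers of neurons (elav, nSyb, Syt1, brp and para) differed by -0.026 to 0.086, the 5 of glia by -0.22 to 0.18, and the 5 of photoreceptors by -0.16 to 0.14. For the 3 fat body markers found, the differences ran from -0.020 to 0.31, for 5 of blood cells from -0.25 to 0.29 and for 4 of muscle from 0.075 to 0.53. The highest was TpnC4, a muscle troponin C gene, at 0.53 ± 0.20 (adjusted p = 0.377). The part of such shifts in the gene differences was not tested.

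Of 43 lists, with 1287 genes in all, 31 had no called gene, and 60 of the 82 called genes were in no list. In the lists 22 genes were called (1.71%), and 14 of 1252 (1.12%) without the neuropeptide precursors, beside 0.882% of all genes. The lists were chosen with earlier results of these data known, so a higher share in them is no result. Besides the neuropeptide precursors, no list of 5 or more genes had a median difference beyond 0.2 in either direction; the next was 0.18 for innexins, the gap junction genes. Among 46 immune recognition and signalling genes spz4 and SPE were called, both higher in JmjC*, and the median was -0.056. Antimicrobial, Bomanin and Turandot genes had 0 of 32 called in the normal test (1 at an unadjusted p under 0.05), with a median of -0.14. In the authors' deposited tables their median was 0.10 in A512P and 0.27 in JmjC*. Of 31 cuticle and Osiris genes, Edg91 was higher in A512P and Cpr66D higher in JmjC*, so both directions occurred in 1 list. Among 28 surface recognition genes kirre was called towards JmjC*, as was bdl, and the median was 0.033.

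Large gene groups whose median lay below WT with both alleles had small median differences between them. In several of them most differences were nevertheless above 0, towards A512P. This held for 68 of 82 cytosolic ribosomal protein genes, 37 of 42 dpr and DIP genes and 32 of 41 synaptic genes. It did not hold for phototransduction genes, with 20 of 45 above 0, nor over all genes, with 4594 of 9292. Cytosolic ribosomal protein genes had 0 of 82 called in the normal test (1 at an unadjusted p under 0.05), with a median difference of 0.055. In the authors' deposited tables their median log2 fold change was -0.35 in A512P and -0.41 in JmjC*, with 60 and 74 called below WT. Subunits of oxidative phosphorylation had 0 of 67 called (2 at an unadjusted p under 0.05) and a median of 0.11; 63 of 67 differences were above 0. The dpr and DIP genes, surface receptors that match synaptic partners, had 0 of 42 called (2 at an unadjusted p under 0.05) and a median of 0.099, with 36 below WT in A512P and 40 in JmjC* in the authors' deposited tables. Synaptic vesicle and active zone genes had 0 of 41 called (1 at an unadjusted p under 0.05) and a median of 0.062. For 37 learning, memory and intellectual disability genes the count was 0 (0 at an unadjusted p under 0.05) and the median 0.031. Phototransduction genes had 1 of 45 called, laza, and a median of -0.038, but 10 had an unadjusted p under 0.05, 7 higher in JmjC* and 3 higher in A512P. With a correlation of 0.5, 4 were called higher in JmjC*, laza, Rh6, trpl and Arr1, and 1 higher in A512P, retinin; the eye genes Rh6 and retinin differed by -0.41 ± 0.12 and 0.42 ± 0.12.

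**Figure D4:**
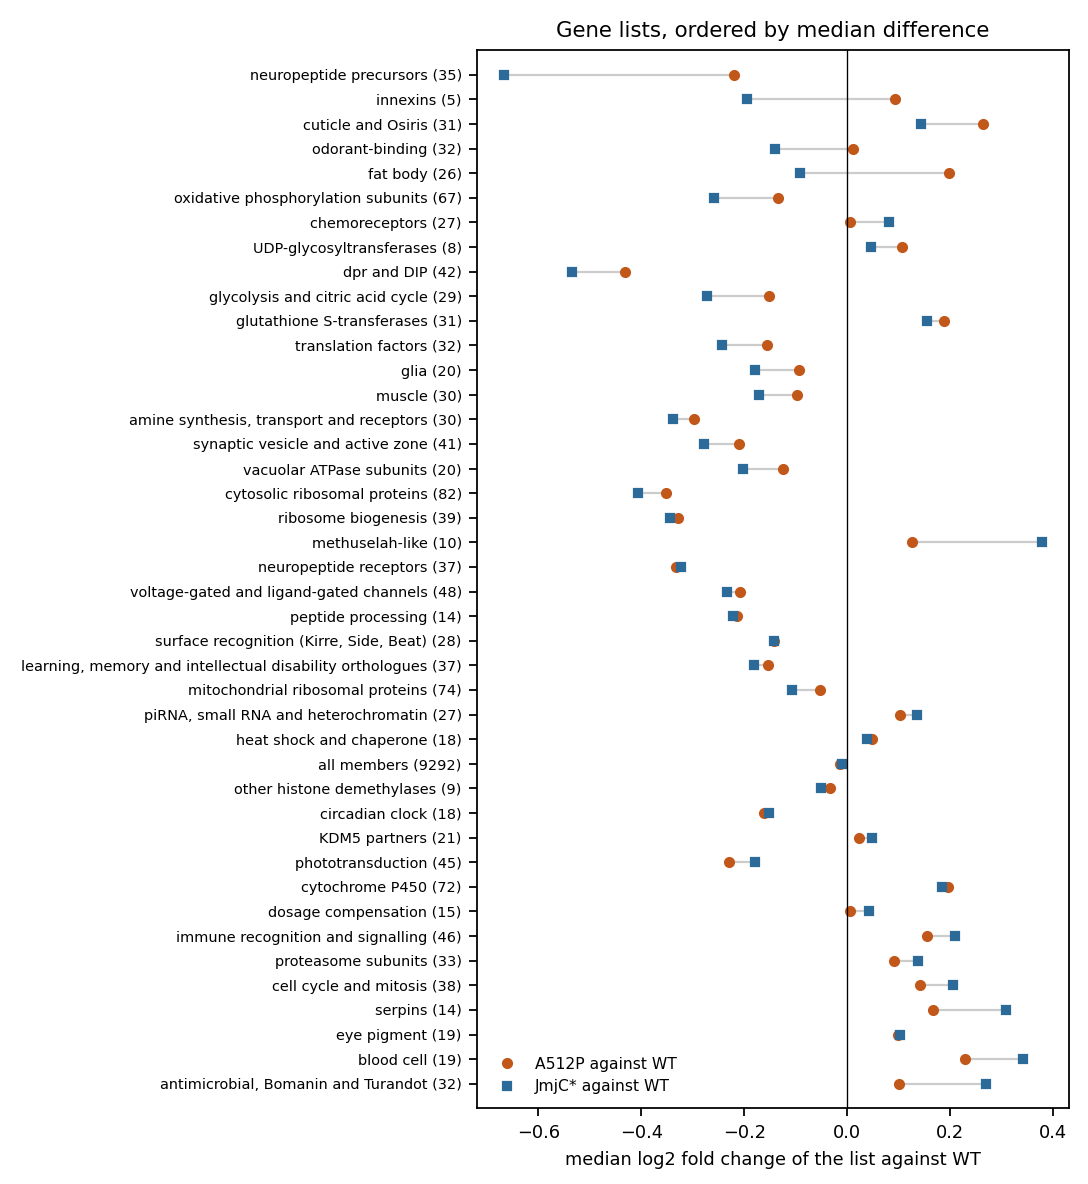
Median log2 fold change against WT of each gene list with 5 or more tested genes (number of genes in brackets), in A512P (orange circles) and JmjC* (blue squares), ordered by the median difference. The neuropeptide precursors at the top are at -0.22 and -0.67, whereas the cytosolic ribosomal proteins are at -0.35 and -0.41 and all genes lie near 0 with both alleles.

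No call was made for the mutated gene or its partners. The kdm5 gene itself (lid in the tables) differed by 0.025 ± 0.13, with a 95% interval of -0.24 to 0.29; both alleles alter the protein, so its transcript does not check the labels. Among 21 genes of KDM5 partners and related chromatin factors 0 were called in the normal test, and 3 had an unadjusted p under 0.05, all higher in JmjC*. The nearest to the threshold was Sin3A, the scaffold of a histone deacetylase complex, at -0.44 ± 0.13 (adjusted p = 0.0614), followed by ash2, a subunit of histone methyltransferase complexes, at -0.34 ± 0.12 (adjusted p = 0.281). With a correlation of 0.5 between both fold changes, both were called. Among 15 dosage compensation and sex determination genes 0 were called in the normal test (1 at an unadjusted p under 0.05). roX1, the non-coding RNA of the male dosage compensation complex, stood at 3.77 ± 0.11 in A512P and 4.20 ± 0.11 in JmjC* in the authors' deposited tables. The difference of -0.43 ± 0.16 was not called (adjusted p = 0.333), and its interval ran from -0.74 to -0.12; with a correlation of 0.5 it was called (adjusted p = 0.00624).

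The genes with the smallest p against WT for both alleles that were not called directly are given with the interval of the difference. The cyclin gene CycB stood at 2.95 ± 0.17 in A512P and 3.35 ± 0.16 in JmjC* in the authors' deposited tables; the difference was -0.40, with a 95% interval of -0.86 to 0.06. Cyp4s3, a cytochrome P450 gene, stood at -2.88 ± 0.21 and -2.70 ± 0.21 in the authors' deposited tables, with a difference of -0.18 (-0.75 to 0.39). TkR99D, a tachykinin receptor gene, stood at 1.94 ± 0.10 and 1.60 ± 0.10 in the authors' deposited tables, with a difference of 0.34 (0.06 to 0.62). The chitinase gene Cht3 differed by 0.04 (-0.45 to 0.53), CG13646 by 0.19 (-0.24 to 0.62) and the cuticle gene Cpr76Bd by -0.48 (-0.86 to -0.11). CR43361, CG11409 and CG9150 differed by 0.07, -0.09 and 0.05. These genes were picked among those not called in the direct test. With a correlation of 0.5 between both fold changes, Cpr76Bd (adjusted p = 0.0141) and TkR99D (adjusted p = 0.0293) were called.

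Called genes were found on every large chromosome arm. On 3R 35 of 2299 tested genes were called (1.52%; 26 higher in A512P and 9 higher in JmjC*), on 3L 18 of 1788 (1.01%), on 2L 12 of 1653 (0.726%), on X 9 of 1540 (0.584%), on 2R 6 of 1907 (0.315%) and on chromosome 4 2 of 90 (2.22%). These shares are given as a description, with no test. In windows of 5 Mb on 3R, the window from 15 to 20 Mb held 10 called of 392 (2.55%) and that from 5 to 10 Mb held 8 of 433 (1.85%). Positions are those of BDGP6.54; the sources used here do not give the build of the authors' files, and 17209 of 17478 identifiers matched, all on the same chromosome.

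Genes called in the same direction lay within 10 kb of each other in 7 places, with 15 genes in all. How often tested genes in general lie this close was not counted, so the number is only a description. The longest run was St2, CR16735 and CG16734 on 3R, all on the plus strand within 9251843 to 9256731 with 30 and 368 bases between them. In that run the authors' deposited table for A512P gives 4.45, 2.27 and 2.66, and that for JmjC* gives 0.78, 0.00 and -0.60. All 3 were thus above WT in A512P, and the differences were 3.68, 2.27 and 3.26. For CR16735 the JmjC* fold change is exactly 0, with no reason stated, so it may not be a measured value. Its difference of 2.27 is then the A512P fold change alone. Its mean normalized count of 151 is over all libraries, A512P included. Whether CR16735 passed the minimum count through A512P alone was not tested. CG6912 and the antisense gene CR45600 overlap by 20 bases on the same strand of 3R and differed by 1.53 and 1.85, so reads at their border cannot be assigned to either with certainty. The other pairs were CG7214 with CG7203, glob1 with CG3303, Coprox with smt3, CG6488 with spz4, and GILT3 with SPE; between GILT3 and SPE 2 other tested genes begin that were not called. Each pair shared its direction because a run was defined that way. In the pair of CG6488 and spz4 the differences were -0.77 and -2.27, and in that of Coprox and smt3 they were -0.71 and -0.83.

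Of 80 called genes placed on the annotation, 35 overlap another annotated gene. The same share was not counted over all tested genes, so these numbers cannot be read as a trait of called genes. The sources used here do not give the use of strand in the authors' counting, so reads of partners on opposite strands may be shared. Partners on the same strand may share reads under any setting. Nmdmc overlaps Rel in this way, which differed by -0.23 ± 0.19. The gene kirre overlaps 23 annotated genes, 12 of them on its strand, among them CG3603 at -0.54 ± 0.22 (adjusted p = 0.501, direct test). For most of the large differences the partner was not called. The gene opposite spz4, CG6509, differed by -0.09 ± 0.15, that opposite Smu1, dnk, by 0.03 ± 0.20, and that opposite SIFa, Start1, by -0.10 ± 0.11. The gene vret, opposite CG6985, differed in the other direction, at -0.79 ± 0.29 (adjusted p = 0.331). CG9589 lies opposite c(3)G, which differed by -0.25 ± 0.19, and CR44030 opposite fuss, which differed by 0.16 ± 0.18. CG2104, opposite plx, was below the minimum count and differed by -1.003 ± 0.31 (adjusted p = 0.119). mthl8, St2, AstC and Sdr overlap no other annotated gene.

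At the limit of 50 itself, CR44230 lay just inside, with a mean normalized count of 50.05 in the authors' deposited tables and a difference of 0.42 ± 0.29, and CG12911 just outside, at 49.85 in the authors' deposited tables and -0.11 ± 0.30.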

How the data were processed

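RNA of 9 libraries of whole adult heads was measured, 3 each of WT, kdm5[A512P] and kdm5[JmjC*], with groups read from the titles. Nothing in the labels states separate fly collections for replicate libraries; p-values therefore reflect only library-to-library spread, possibly technical. Per the submitters' processing notes, the authors used STAR and DESeq2 (no versions). The build, annotation, counting and strand setting were not stated in the sources used here. The authors deposited a table of their own comparison with WT for each allele. Per the file headers, the deposited signal of a gene is a mean normalized count over all libraries, its change a log2 fold change with its SE, its Wald statistic a score, and its p-value is given raw and adjusted. The fold changes look shrunken towards 0, since no SE exceeded 0.231, and so understate changes of weakly expressed genes. No count model was fitted. The direct difference was a normal test with the Benjamini-Hochberg adjustment over all genes tested for both alleles (Python 3.11.15, numpy 2.4.6, scipy 1.17.1, pandas 2.3.3). Gene members and lists were chosen with earlier results of these data known. Genes are named by a rule: the 12 largest differences each way, up to 5 called genes of a list with relatives that differ, genes called on opposite sides of WT, lid and dosage compensation, up to 10 genes with the smallest p for both alleles that were not called directly, and runs of neighbours; the others named in the text were chosen after their values were seen. Motifs in promoters were not searched. Alternatives are described in the closing section.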

Additional observations from a re-analysis of the deposited data

Results flagged for a closer look

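Genes whose response to the 2 alleles lay on opposite sides of WT, by calls in both of the authors' deposited tables and in the direct test, are set out here with the difference A512P minus JmjC* on the log2 scale. Towards A512P these were CG16734 at 3.26, qin at 3.21, CG6912 at 1.53, CG15353 at 1.12, CG30033 at 0.95, CG7203 at 0.80 and CG6908 at 0.49. Towards JmjC* they were CG30440 at -1.71, plx at -0.72, kirre at -0.63 and bdl at -0.46. The adjusted p of the direct test ran from 3.79e-61 for CG6912 to 0.00936 for CG7203.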

How the results depend on the processing

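The count of 82 genes depended most on how the WT error was counted, and it is a cautious count because the WT error enters it in full. With a correlation of 0.5 between both fold changes, 360 genes were called, 209 higher in A512P and 151 higher in JmjC*, and 19 neuropeptide precursors were called higher in A512P. Without a minimum count 48 genes were higher in JmjC* (102 called in all), and at an adjusted p under 0.01 the number higher in JmjC* was 19 (56 in all). All 82 genes were kept with the correlation of 0.5, with a minimum of 20 (90 called) and with no minimum. This was fixed in advance: the correlation narrows every SE, and a lower minimum leaves each adjusted p as it was. All 82 were also kept with adjustment over the 9292 genes alone (82 called) and with centring on the median difference (85). A minimum of 100 kept 77, and a difference of at least 0.5 on the log2 scale kept 70; both leave genes out by construction. No called direction was reversed, but none could be. Only centring changed the differences, by the median of -0.0019, and the smallest called difference was 0.31. The median difference of the neuropeptide precursors ran from 0.37 to 0.46 under these alternatives. No paired analysis was possible because the tables used hold no values per library, and leaving out single libraries was not run for the same reason. Depth of single libraries is unknown here, and the SE, with a median of 0.156 for the difference, sets what could be seen: the smallest called difference was 0.31.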

Other observations

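Below the minimum count of 50 another 2316 genes had an adjusted p for both alleles, and 20 of them were called, 3 higher in A512P and 17 higher in JmjC*. The proneural gene ase (asense), which marks neural precursors, stood at 0.57 in A512P and 2.37 in JmjC* in the authors' deposited tables, at a mean normalized count of 30.8, and differed by -1.80 ± 0.33 (adjusted p = 1.19e-05). The odorant-binding protein genes Obp58c and Obp99d differed by -1.60 ± 0.30 and -1.35 ± 0.33. CG43179 differed by -2.21 ± 0.33 and the non-coding CR40469 by -1.99 ± 0.32. Towards A512P, CR45680 differed by 1.64 ± 0.32, CR43641 by 1.30 ± 0.30 and CG10841 by 1.29 ± 0.30. These genes have mean normalized counts from 7.66 to 42.9 in the authors' deposited tables. They were named after their values were seen.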
